A study of Mus musculus with 12 samples.

Results

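The genes described here encode the muscleblind-like (Mbnl) RNA-binding proteins and the splicing regulators most often set against them or beside them: Mbnl1, Mbnl2, Mbnl3, Celf1, Celf2, Rbfox2, Ptbp1, Ptbp2, Qk and Esrp1. They were chosen by gene symbol, and these 10 names matched 11 of the 23022 genes listed, because the symbol Qk is listed under 2 gene identifiers. RNA-seq was performed on B16-F10 cells, a melanoma line of C57BL/6 mouse origin that carried Cas9 and came from 1 clone. That line was transduced with a control guide (NTC, given as no template control in the sample labels and as a non-targeting control by the study) or with paired guides against Mbnl1 and Mbnl2 (DKO). Each genotype was left untreated or was given interferon gamma (IFNγ) at 1 ng/mL for 24 h, which made 4 conditions with 3 replicate libraries each. The transduced cells were polyclonal, so editing need not be complete in every DKO cell, and the libraries were poly(A)-selected and unstranded. For polyclonal Mbnl1 or Mbnl2 knockout cells, the study reported incomplete loss of protein by western blot and indels in most alleles by DNA sequencing. It described varying degrees of MBNL protein loss in its polyclonal cells, and more MBNL2 protein after Mbnl1 knockout. RNA levels given here measure neither edited alleles nor protein. Nothing in the labels says whether the replicates came from separate cultures, so the p-values measure only the spread between these libraries.

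MBNL proteins bind YGCY-like motifs in pre-mRNA through zinc fingers and promote or repress exons according to where they bind; they also act on polyadenylation and RNA localisation. CELF proteins bind GU-rich RNA and oppose MBNL on many exons, most visibly in striated muscle development and in myotonic dystrophy, in which expanded CUG repeats sequester MBNL. RBFOX2, the PTB proteins, Quaking and the epithelial regulator ESRP1 read other motifs and set splicing programmes of their own, in muscle, nerve, glia and epithelium.

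Levels were deposited as TPM (a length-normalised share of all transcripts), which can therefore be set side by side between genes. The listed values summed to between 844185 and 874612 TPM in NTC libraries and to between 805782 and 827191 TPM in DKO libraries. Differences are on the log2(TPM + 1) scale, where the added 1 TPM makes the change of a weakly expressed gene look smaller than it is. Each was tested with limma across the 11663 genes that reached 1 TPM in at least 3 libraries, and a gene was called at a Benjamini-Hochberg adjusted p under 0.05. By that rule 9 of the 11 were tested. Esrp1 and the second Qk entry lay under the filter.

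Mbnl1 and Mbnl2 were the genes targeted, and Mbnl3 is the untargeted paralogue. Mbnl1 lies at chr3:60472830-60629750 on the plus strand, Mbnl2 at chr14:120275669-120431697 on the plus strand and Mbnl3 at chrX:51117269-51206532 on the minus strand (GRCm38, GENCODE M21). The promoters of Mbnl1, Mbnl2 and Mbnl3 are shown as a description, from 250 bases before to 50 bases after each RefSeq start (GRCm38.p6). Their part in the RNA differences was not tested. RefSeq entries were found for 8 of the 10 names, among them a pair of starts for Mbnl1. Capitals mark the GC box (GGGCGG or CCGCCC), the CCAAT box (CCAAT or ATTGG), the TATA box (TATAAA or TTTATA), the M box bound by MITF (CATGTG or CACATG) and the gamma-activated site (TTCNNNGAA), each searched on both strands and marked also where matches overlap. Of 32817 promoters of the same length, 35.6% held a GC box, 37.4% a CCAAT box, 13.6% a TATA box, 14.2% an M box and 8.29% a gamma-activated site.
Mbnl1, chr3:60472580-60472879, plus strand: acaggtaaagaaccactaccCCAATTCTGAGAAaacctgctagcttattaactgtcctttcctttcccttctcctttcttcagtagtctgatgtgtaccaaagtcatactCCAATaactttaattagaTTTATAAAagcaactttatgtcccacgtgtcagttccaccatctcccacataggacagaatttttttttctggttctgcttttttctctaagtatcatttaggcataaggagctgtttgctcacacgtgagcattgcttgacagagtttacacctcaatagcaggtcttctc
Mbnl1, chr3:60500929-60501228, plus strand: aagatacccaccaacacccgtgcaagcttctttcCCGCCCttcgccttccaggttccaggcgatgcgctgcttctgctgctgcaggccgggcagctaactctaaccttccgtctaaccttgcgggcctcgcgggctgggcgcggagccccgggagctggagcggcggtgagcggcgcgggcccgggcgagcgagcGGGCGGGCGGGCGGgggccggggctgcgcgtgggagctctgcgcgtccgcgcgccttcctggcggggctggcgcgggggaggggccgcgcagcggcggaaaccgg
Mbnl2, chr14:120275419-120275718, plus strand: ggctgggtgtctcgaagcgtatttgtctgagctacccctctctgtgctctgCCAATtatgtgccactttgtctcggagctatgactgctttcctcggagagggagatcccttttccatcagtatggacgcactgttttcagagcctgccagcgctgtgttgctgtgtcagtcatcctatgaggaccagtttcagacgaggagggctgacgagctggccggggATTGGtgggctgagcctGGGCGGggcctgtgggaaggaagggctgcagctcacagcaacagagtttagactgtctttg
Mbnl3, chrX:51205941-51206240, minus strand: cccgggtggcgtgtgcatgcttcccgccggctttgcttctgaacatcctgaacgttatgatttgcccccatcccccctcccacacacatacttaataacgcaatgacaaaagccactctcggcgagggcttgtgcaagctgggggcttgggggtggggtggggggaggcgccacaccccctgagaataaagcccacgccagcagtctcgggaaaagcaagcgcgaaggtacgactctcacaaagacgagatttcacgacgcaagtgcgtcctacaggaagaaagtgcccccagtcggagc
The upstream Mbnl1 start had 39.3% G+C, with 2 CCAAT boxes, 2 overlapping TATA boxes on opposite strands and 1 gamma-activated site that overlaps a CCAAT box. The second Mbnl1 start had 75% G+C and 4 GC boxes. The Mbnl2 window had 56.3% G+C, 2 CCAAT boxes and 1 GC box, and the Mbnl3 window had 59% G+C and none of these 5 motifs. The median promoter had 52.7% G+C. A match describes the letters only, and none of these windows held an M box. Other motifs, including any other sites of MITF, were not searched.

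Mbnl1 RNA was present in every DKO library below its control level. Untreated NTC libraries held 56.8, 57.0 and 55.6 TPM, and untreated DKO libraries 41.3, 41.1 and 44.0 TPM. With IFNγ the NTC libraries held 60.5, 63.9 and 63.3 TPM, and the DKO libraries 44.9, 42.7 and 47.5 TPM. All 6 DKO libraries therefore lay below all 6 NTC libraries, with no overlap. The untreated DKO libraries retained 74.6% ± 2.92 of the NTC mean (SD, n = 3), and the IFNγ-treated DKO libraries 71.9% ± 3.9. On the log2 scale Mbnl1 fell by 0.41 without IFNγ (SE 0.0489, limma with Benjamini-Hochberg adjusted p = 2.54e-05) and by 0.47 with IFNγ (SE 0.0489, adjusted p = 8.12e-06). A fall at least as large was seen in 5.94% of all tested genes without IFNγ and in 5.15% with IFNγ. In RNA from whole cultures, fewer cells that express a gene and less RNA per cell cannot be told apart, and TPM does not separate transcripts of edited alleles from intact ones.

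Mbnl2, which overlaps MBNL1 in its targets, changed in the same direction by less. Its values were 107, 99.2 and 101 TPM in untreated NTC and 87.2, 90.2 and 90.0 TPM in untreated DKO. With IFNγ they were 107, 104 and 107 TPM in NTC, against 88.9, 83.9 and 98.0 TPM in DKO. The highest DKO value, 98.0 TPM in replicate 3 with IFNγ, came close to the lowest NTC value of 99.2 TPM, and the genotypes did not overlap. DKO libraries retained 86.9% ± 1.64 of the NTC mean without IFNγ and 85.1% ± 6.76 with it (SD, n = 3). The log2 difference was -0.20 without IFNγ (SE 0.0527, limma adjusted p = 0.00937) and -0.23 with IFNγ (SE 0.0527, adjusted p = 0.00308). A fall of that size was common: 19.8% of all tested genes fell at least as far without IFNγ and 18.8% with it.

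Mbnl3, the family member with the lowest RNA level, was higher in DKO cells. It stood at 5.02, 6.50 and 4.56 TPM in untreated NTC and at 8.33, 7.04 and 6.87 TPM in untreated DKO. With IFNγ it stood at 5.59, 5.87 and 6.03 TPM in NTC and at 7.56, 7.42 and 6.91 TPM in DKO. Every DKO library exceeded every NTC library, by a narrow margin where NTC replicate 2 reached 6.50 TPM. Between genotypes it differed in log2 by 0.41 without IFNγ (SE 0.105, limma adjusted p = 0.00765), with 6.31% of all tested genes rising at least as far. With IFNγ it was 0.28 (SE 0.105, adjusted p = 0.0454), just inside the threshold, and 15.7% of all tested genes rose at least as far. That second call was lost when any 1 of 9 libraries was left out (log2 difference from 0.25 to 0.31, adjusted p from 0.0501 to 0.118). These were each IFNγ-treated library of either genotype, replicate 1 of untreated NTC, and replicates 2 and 3 of untreated DKO. The call was also lost when all listed genes were fitted (0.28, adjusted p = 0.071).

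**Figure D1:**
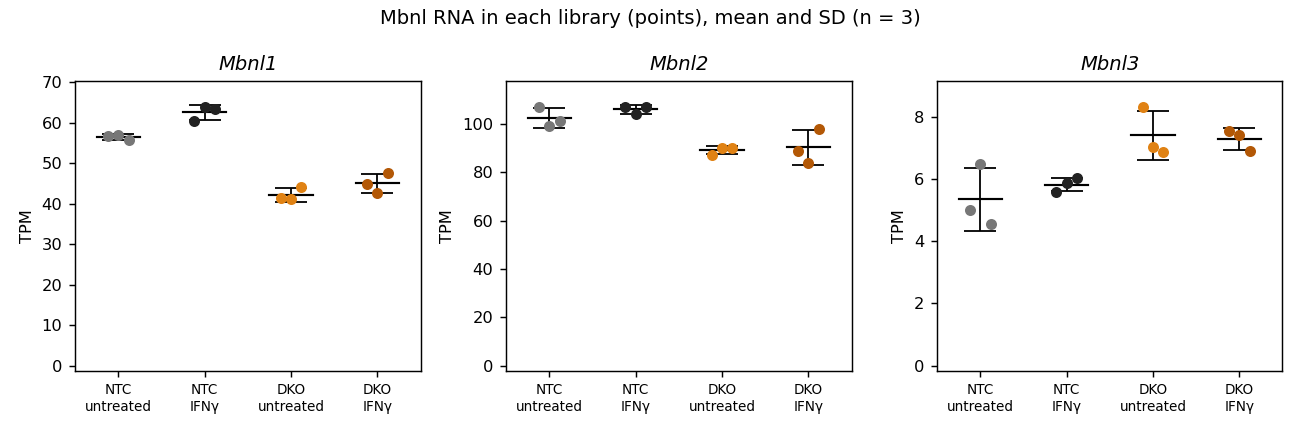
Mbnl1, Mbnl2 and Mbnl3 RNA in TPM (vertical axis) in each of the 12 libraries (points) by condition, with the mean and SD of 3 replicates. DKO values of Mbnl1 (41.1 to 47.5 TPM) lie below all NTC values (55.6 to 63.9 TPM), Mbnl2 shows a smaller step, and Mbnl3 lies higher in DKO (6.87 to 8.33 TPM) than in NTC (4.56 to 6.50 TPM).

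In TPM, the rise of Mbnl3 was small beside the loss of the targeted transcripts. Relative to its own NTC mean, Mbnl3 in DKO libraries stood at 138% ± 14.9 without IFNγ and 125% ± 5.87 with IFNγ (SD, n = 3). Untreated DKO cells had 2.05 TPM more Mbnl3 than NTC cells, while the differences for Mbnl1 and Mbnl2 were -14.3 and -13.4 TPM. With IFNγ the differences were 1.46 TPM for Mbnl3, -17.6 TPM for Mbnl1 and -15.8 TPM for Mbnl2. The 3 genes together summed to 169, 163 and 161 TPM in untreated NTC and to 137, 138 and 141 TPM in untreated DKO. With IFNγ the sums were 173, 174 and 176 TPM in NTC, against 141, 134 and 152 TPM in DKO. DKO cells thus held 84.4% ± 1.26 of the control sum without IFNγ and 81.7% ± 5.34 with IFNγ (SD, n = 3), given as a description without a test. Mbnl2 supplied most of the sum in every condition, at a mean of 62.4% in untreated NTC and 64.3% in untreated DKO. The share of Mbnl1 was 34.4% ± 0.707 in untreated NTC and 30.4% ± 0.794 in untreated DKO, while that of Mbnl3 was 3.26% ± 0.638 and 5.35% ± 0.647. With IFNγ the Mbnl3 share was 3.34% ± 0.097 in NTC and 5.14% ± 0.535 in DKO. These shares do not depend on how libraries are scaled.

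**Figure D2:**
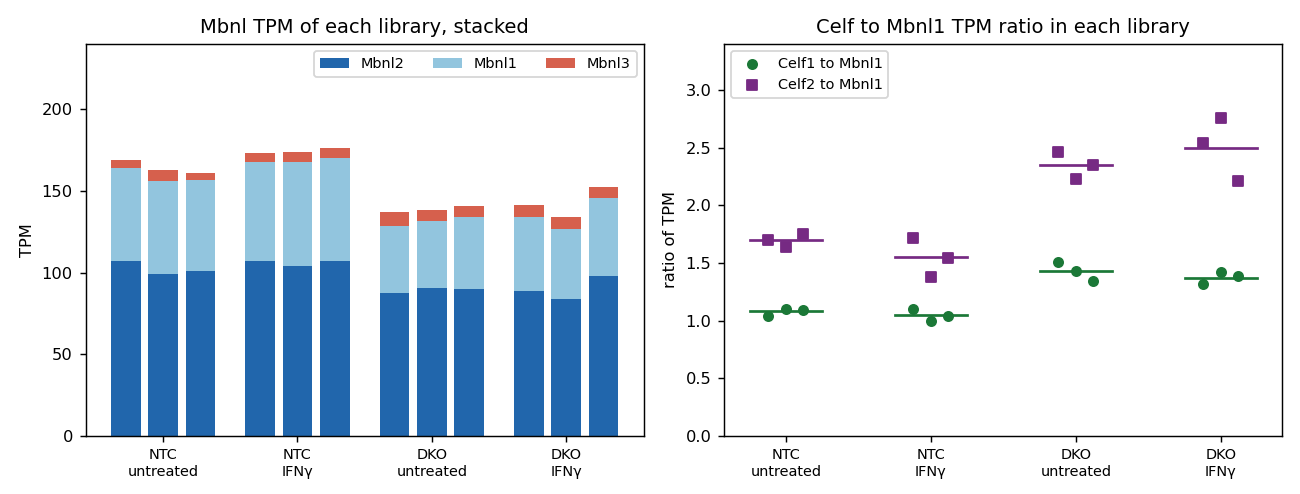
Left, TPM of Mbnl2, Mbnl1 and Mbnl3 stacked for each library (3 bars per condition, replicates 1 to 3), with sums of 161 to 176 TPM in NTC and 134 to 152 TPM in DKO. Right, the ratio of Celf1 or Celf2 TPM to Mbnl1 TPM in each library (points) with the mean of each condition (lines); both ratios are higher in every DKO library than in any NTC library.

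Across the members, 3 of 9 were called between DKO and NTC without IFNγ, beside 36.4% of all tested genes. Of these, 1 was higher, where 17.0% of all tested genes were, and 2 were lower, where 19.4% were; they were the 3 Mbnl genes. With IFNγ 6 of 9 were called, beside 43.3% of all tested genes, 3 of them higher (19.5% over all genes) and 3 lower (23.9%). That count was 2 without replicate 2 of IFNγ-treated NTC or replicate 1 or 2 of IFNγ-treated DKO. With the treatments averaged, 5 were called, beside 53.2% of all tested genes, 3 higher (24.8%) and 2 lower (28.4%). The median absolute log2 difference of the members was 0.09 without IFNγ and 0.17 with it, against 0.15 and 0.18 over all tested genes. DKO and NTC libraries did not overlap in either treatment, in the same direction, for 5 members (Mbnl1 and Mbnl2 lower, Mbnl3, Ptbp1 and Rbfox2 higher), beside 34.5% of all tested genes. Of all genes called, 46.7% were higher in DKO without IFNγ, 44.9% with it and 46.6% averaged, and with libraries scaled to the same total these splits became 60.7%, 65.3% and 63.1%. With the treatments averaged, Mbnl1 stood at -0.44, Mbnl2 at -0.22, Mbnl3 at 0.35, Ptbp1 at 0.12 and Celf2 at 0.13 (adjusted p 2.44e-07, 0.000274, 0.00147, 0.00658 and 0.0288). The averaged Celf2 call was lost without replicate 2 of either NTC group, replicate 1 or 3 of untreated DKO, or replicate 1 or 2 of IFNγ-treated DKO (log2 difference from 0.10 to 0.12, adjusted p from 0.0595 to 0.0737).

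**Figure D3:**
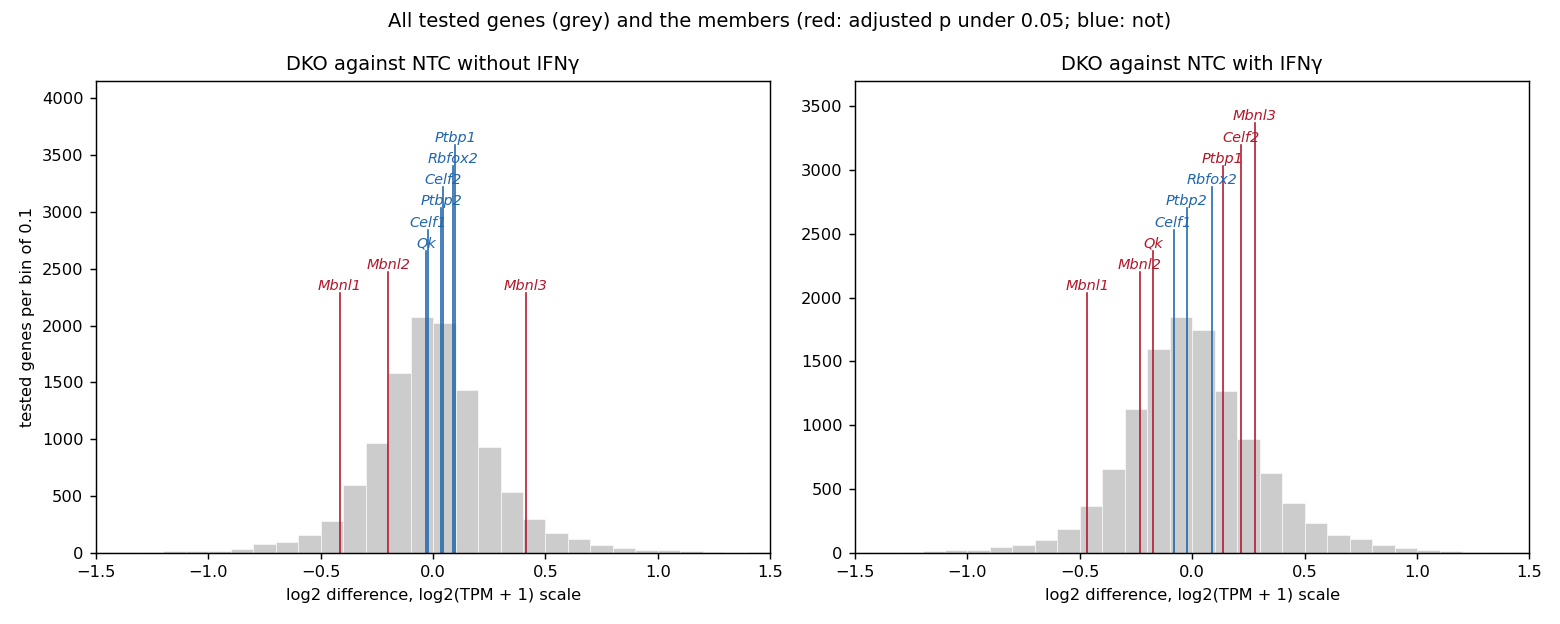
Number of tested genes (grey bars, vertical axis) by log2 difference between DKO and NTC in bins of 0.1 (horizontal axis; genes past the ends of the scale are not shown), without IFNγ (left) and with IFNγ (right), with each tested member as a labelled line, red where called. Mbnl1 at -0.41 and -0.47 lies farthest to the left of the members, and Mbnl3 at 0.41 and 0.28 farthest to the right.

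The CELF proteins are the classical antagonists of MBNL. Celf1 (chr2:90940382-91019497, plus strand) stood at 59.1, 63.0 and 60.8 TPM in untreated NTC and at 62.4, 58.8 and 58.9 TPM in untreated DKO. With IFNγ it stood at 66.3, 64.2 and 66.1 TPM in NTC and at 59.2, 60.5 and 65.9 TPM in DKO. The genotypes overlapped in both treatments. The log2 difference was -0.02 without IFNγ (95% interval -0.13 to 0.08, limma adjusted p = 0.762) and -0.08 with it (95% interval -0.19 to 0.02, adjusted p = 0.185). Neither direction held under all scalings, since both values turned to 0.03 and 0.00 when each library was scaled to the same total. Without DKO replicate 3 of the IFNγ libraries, the second difference was -0.13 and was called (adjusted p = 0.0389).

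Celf2 (chr2:6539694-7509563, minus strand) was more abundant than Celf1 in every library. Untreated NTC libraries held 96.6, 93.5 and 97.5 TPM and untreated DKO libraries 101, 91.8 and 103 TPM. With IFNγ the NTC libraries held 104, 87.9 and 97.6 TPM and the DKO libraries 114, 118 and 105 TPM. The untreated groups overlapped, while all IFNγ-treated DKO libraries lay above the IFNγ-treated NTC libraries, the nearest pair being 105 and 104 TPM. Between genotypes it differed in log2 by 0.04 without IFNγ (95% interval -0.10 to 0.18, limma adjusted p = 0.645) and 0.22 with IFNγ (SE 0.0647, adjusted p = 0.0159), where 20.6% of all tested genes rose at least as far. The IFNγ-treated call was lost without NTC replicate 2, which held the lowest value (log2 difference 0.15, adjusted p = 0.078), and without DKO replicate 1 (0.21, adjusted p = 0.0503) or DKO replicate 2 (0.18, adjusted p = 0.0615). The difference between the untreated and treated contrasts was 0.17 (95% interval -0.02 to 0.37) and was not called (adjusted p = 0.469).

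Ratios of Celf to Mbnl RNA restate these values within each library, and those to Mbnl1 rest on the member that fell most. The Celf1 to Mbnl1 TPM ratio was 1.04, 1.1 and 1.09 in untreated NTC and 1.51, 1.43 and 1.34 in untreated DKO. With IFNγ it was 1.1, 1.00 and 1.04 in NTC and 1.32, 1.42 and 1.39 in DKO. The Celf2 to Mbnl1 ratio had means of 1.70 ± 0.0569 and 1.55 ± 0.174 in untreated and IFNγ-treated NTC, and of 2.35 ± 0.112 and 2.50 ± 0.275 in the matching DKO cells (SD, n = 3). Against Mbnl2 or the Mbnl sum, chosen after the ratios to Mbnl1 were seen, the steps were smaller. Celf1 to the sum was 0.371 ± 0.0194 and 0.376 ± 0.0072 in untreated and IFNγ-treated NTC and 0.433 ± 0.02 and 0.434 ± 0.0167 in DKO, and Celf2 to the sum was 0.583 ± 0.0179 and 0.554 ± 0.0487 in NTC and 0.713 ± 0.0429 and 0.791 ± 0.0952 in DKO. Celf1 to Mbnl2 was 0.596 ± 0.042 and 0.618 ± 0.00217 in NTC and 0.674 ± 0.0357 and 0.686 ± 0.0306 in DKO, and Celf2 to Mbnl2 was 0.936 ± 0.0312 and 0.91 ± 0.066 in NTC and 1.11 ± 0.0802 and 1.25 ± 0.167 in DKO. None of these ratios overlapped between genotypes, the nearest values being 0.635 in NTC and 0.652 in DKO for Celf1 to Mbnl2. All are free of library scaling and are descriptions without a test.

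Rbfox2 (chr15:77078990-77307004, minus strand), which binds UGCAUG next to regulated exons, had even levels. Its condition means exceeded 48.5% to 51.3% of all tested genes. It stood at 18.7, 19.6 and 19.0 TPM in untreated NTC and at 20.1, 19.8 and 21.2 TPM in untreated DKO. With IFNγ it stood at 19.4, 19.4 and 20.0 TPM in NTC and at 20.3, 22.2 and 20.3 TPM in DKO. DKO libraries lay above NTC libraries in each treatment by small margins. The log2 difference was 0.09 without IFNγ (95% interval -0.03 to 0.21, limma adjusted p = 0.211) and 0.09 with it (95% interval -0.03 to 0.20, adjusted p = 0.204), and neither was called. Scaling each library to the same total made the second a call (0.17, adjusted p = 0.0278). The value averaged over treatments was 0.09 (adjusted p = 0.063), and it was called under both scalings, with a trend in GC content and gene length removed (the GC/length correction), and without DKO replicate 3 of the IFNγ libraries (adjusted p from 0.00557 to 0.048).

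Quaking, encoded by Qk (chr17:10202601-10319854, minus strand), binds ACUAAY motifs and is best known from glia and muscle. Its values were 99.2, 90.6 and 92.6 TPM in untreated NTC and 89.4, 91.7 and 95.2 TPM in untreated DKO. With IFNγ they were 102, 114 and 105 TPM in NTC, against 92.6, 88.4 and 104 TPM in DKO. The untreated groups overlapped, and with IFNγ DKO replicate 3, at 104 TPM, lay inside the NTC range. Between genotypes it differed in log2 by -0.03 without IFNγ (95% interval -0.16 to 0.10, limma adjusted p = 0.741), a direction that turned to 0.02 with libraries scaled to the same total. With IFNγ it was -0.17 (SE 0.0625, adjusted p = 0.0388), where 26.1% of all tested genes fell at least as far, and the contrasts differed by -0.14 (adjusted p = 0.528). The call was lost without NTC replicate 2 or 3 or DKO replicate 1 or 2 of the treated libraries (-0.12, -0.19, -0.16 and -0.12, adjusted p from 0.0605 to 0.162), with libraries scaled to the same total (-0.09, adjusted p = 0.238), under the GC/length correction (-0.11, adjusted p = 0.0656) and with median-ratio scaling (-0.16, adjusted p = 0.0547). With the value kept at -0.17 it was also lost with no filter (0.059), from the treated libraries alone (0.0791) and with the replicate number as a block (0.0527). The other entry named Qk was listed at 0 in 11 libraries and at 0.841 TPM in replicate 3 of untreated DKO, and its identifier is not in GENCODE M21.

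Ptbp1 (chr10:79854427-79864771, plus strand), the polypyrimidine tract-binding protein of most non-neural cells, was the most abundant member. Untreated NTC libraries held 397, 436 and 442 TPM and untreated DKO libraries 463, 447 and 453 TPM. With IFNγ the NTC libraries held 403, 386 and 416 TPM and the DKO libraries 440, 452 and 431 TPM. In each treatment all DKO libraries lay above all NTC libraries. The log2 difference was 0.10 without IFNγ (95% interval 0.00 to 0.19, limma adjusted p = 0.102) and 0.14 with IFNγ (SE 0.0444, adjusted p = 0.0248), the latter called, and these contrasts differed by 0.04 (adjusted p = 0.839). With IFNγ 28.4% of all tested genes rose at least as far. The first was called when libraries were scaled to the same total (0.15, adjusted p = 0.0288). The second was lost without NTC replicate 2 (0.11, adjusted p = 0.103), DKO replicate 1 (0.14, adjusted p = 0.0573) or DKO replicate 2 (0.12, adjusted p = 0.074) of the treated libraries, and under the GC/length correction (0.05, adjusted p = 0.299). Plppr3 overlaps Ptbp1 on the opposite strand and cannot be told apart from it in unstranded reads. It was listed at no more than 3.15 TPM. Further genes are annotated over Ptbp1 and over Mbnl1, Mbnl2, Celf2, Rbfox2, Ptbp2 and Esrp1. Apart from Gm10855 and Gm10115 within Celf2, which stood at 0 TPM, they were not listed, so any reads from them cannot be told apart.

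Ptbp2 (chr3:119718742-119784466, minus strand), the neural paralogue that PTBP1 keeps low by promoting skipping of a Ptbp2 exon, ran between 17.1 and 23.3 TPM over all 12 libraries. Untreated NTC libraries held 20.9, 23.3 and 19.8 TPM, and untreated DKO libraries 22.8, 21.4 and 21.5 TPM. With IFNγ they held 17.9, 18.3 and 21 TPM in NTC, against 19.3, 17.1 and 19.8 TPM in DKO. The genotypes overlapped in both treatments, with log2 differences of 0.04 (95% interval -0.13 to 0.21, limma adjusted p = 0.747) and -0.02 (95% interval -0.19 to 0.14, adjusted p = 0.823). The second sign flipped with libraries scaled to the same total (0.06) and under the GC/length correction (0.14). The Ptbp1 to Ptbp2 TPM ratio was 20.0 ± 2.02 in untreated NTC and 20.8 ± 0.384 in untreated DKO, and with IFNγ 21.1 ± 1.4 in NTC and 23.7 ± 2.48 in DKO (SD, n = 3), without a test.

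Esrp1 (chr4:11331933-11386783, minus strand), which drives epithelial exons, was close to absent. It was listed at 0.657, 0.627 and 0 TPM in untreated NTC and at 0.576, 0 and 0 TPM in IFNγ-treated NTC. DKO libraries listed 0.619, 0.637 and 0 TPM without IFNγ and 0.677, 0.589 and 0 TPM with it. All 4 conditions overlapped, 5 of 12 libraries were at 0, and no test was made.

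**Figure D4:**
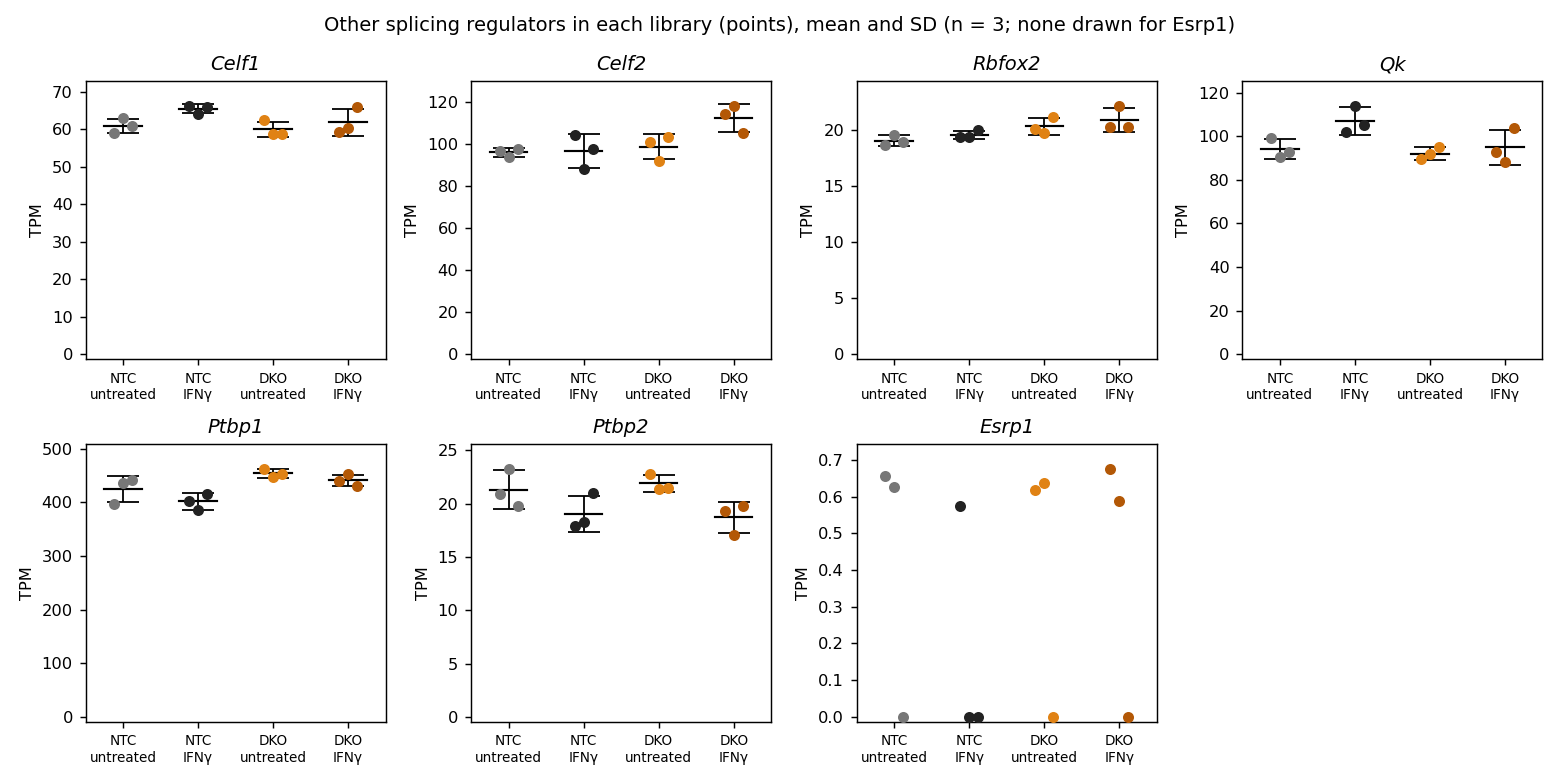
RNA of Celf1, Celf2, Rbfox2, Qk, Ptbp1, Ptbp2 and Esrp1 in TPM (vertical axes, each from 0 with its own range) in each of the 12 libraries (points) by condition, with mean and SD of 3 replicates except for Esrp1, which is listed at 0 in 5 libraries. Ptbp1 runs from 386 to 463 TPM and lies higher in DKO in both treatments; Celf1, Ptbp2 and Qk overlap between the genotypes.

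IFNγ moved no member past the threshold in either genotype, against 12.1% of all tested genes called in NTC and 0.780% in DKO (limma, 0 of 9 members each; 2 of 9 had an unadjusted p under 0.05 in each genotype). The NTC share stands for 1411 genes, a count that fell to 394 and 351 without replicate 2 or 3 of untreated NTC, to 328 and 317 without replicate 2 or 3 of IFNγ-treated NTC, to 897 with no filter and to 472 under the GC/length correction. In NTC the members nearest to a call were Mbnl1, at 0.15 (95% interval 0.04 to 0.25, adjusted p = 0.0667), and Qk, at 0.18 (95% interval 0.05 to 0.32, adjusted p = 0.0689). All IFNγ-treated NTC libraries lay above the untreated ones for both genes. Each became a call when replicate 2 or 3 of IFNγ-treated DKO was left out of the shared estimate of spread (adjusted p 0.0407 and 0.0411 for Mbnl1, 0.045 and 0.0331 for Qk). Ptbp2 in NTC stood at -0.15 (95% interval -0.32 to 0.01, adjusted p = 0.192), which became -0.29 and a call under the GC/length correction (adjusted p = 0.0403), though not when the replicate block was joined to it, a setting chosen after seeing the data. In DKO the widest differences were those of Ptbp2, at -0.22 (95% interval -0.38 to -0.05, adjusted p = 0.369), and Celf2, at 0.18 (95% interval 0.04 to 0.32, adjusted p = 0.351). Mbnl3 was at 0.11 in NTC (95% interval -0.11 to 0.34, adjusted p = 0.482) and at -0.02 in DKO (95% interval -0.24 to 0.21, adjusted p = 0.985). No member was called for a difference in IFNγ response between genotypes (0 of 9 members, 0 of 9 with an unadjusted p under 0.05), beside 0.0343% of all tested genes. The treatment itself took in both genotypes, where Irf1, Gbp2 and B2m rose: their log2 differences were 1.14, 2.83 and 2.58 in NTC (limma adjusted p 2.1e-07, 1.53e-09 and 4.13e-12) and 0.93, 2.55 and 1.95 in DKO (adjusted p 2.2e-06, 6.03e-09 and 8.32e-11). Tap1 lay under 1 TPM in untreated NTC and passed the filter through libraries where it was higher (means 0.746 and 10.1 TPM in untreated and IFNγ-treated NTC, 1.15 and 6.44 TPM in DKO), so its test is not used here. B2m had a smaller response in DKO, by -0.63 (SE 0.0821, limma adjusted p = 0.0256), a call lost without any 1 replicate of untreated NTC, replicate 2 or 3 of IFNγ-treated NTC, replicate 2 or 3 of untreated DKO or replicate 1 of IFNγ-treated DKO (adjusted p from 0.0511 to 0.096, with the value at -0.66 to -0.59). The genotype contrasts with and without IFNγ rest on different libraries but share the estimate of spread, and each IFNγ contrast shares its libraries with the genotype contrasts.

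**Figure D5:**
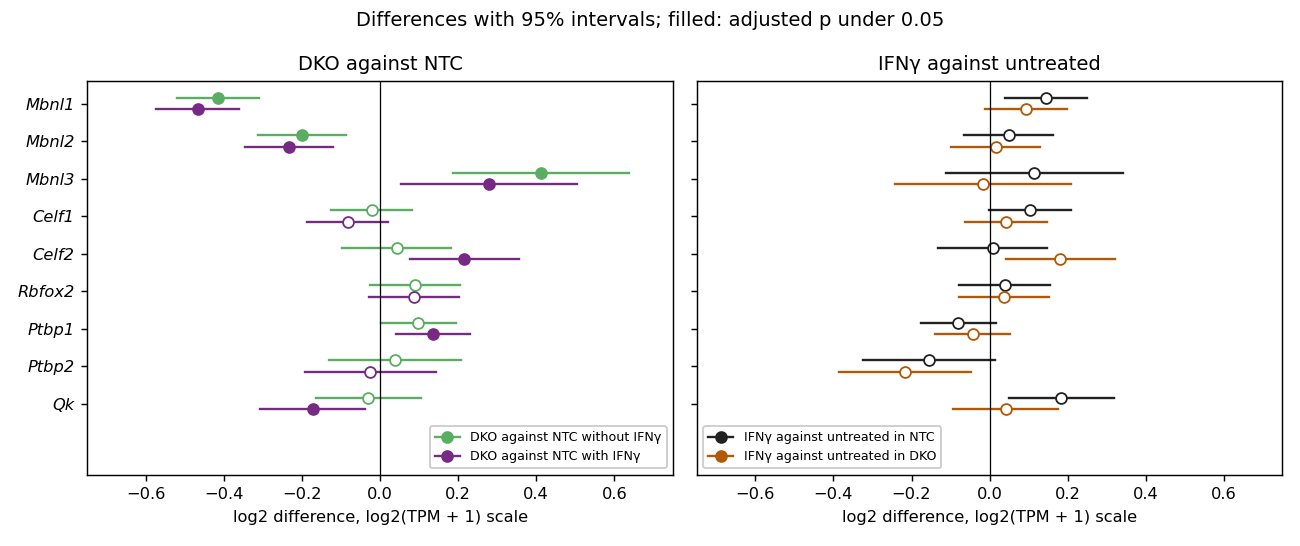
log2 difference (horizontal axis, log2(TPM + 1) scale) of the 9 tested members with 95% intervals, between DKO and NTC without and with IFNγ (left) and between IFNγ and untreated in NTC and DKO (right); filled points have an adjusted p under 0.05. Filled points appear in the genotype comparisons only, for Mbnl1, Mbnl2 and Mbnl3 in both treatments and for Celf2, Ptbp1 and Qk with IFNγ.

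The order of the levels was led by Ptbp1 in every condition, at 425 ± 24.1 TPM in untreated NTC, 402 ± 14.9 in IFNγ-treated NTC, 454 ± 8.43 in untreated DKO and 441 ± 10.4 in IFNγ-treated DKO (SD, n = 3). In untreated NTC it was followed by Mbnl2 (103 ± 4.12 TPM), Celf2 (95.9 ± 2.12), Qk (94.1 ± 4.53), Celf1 (61 ± 1.95), Mbnl1 (56.5 ± 0.756), Ptbp2 (21.3 ± 1.8), Rbfox2 (19.1 ± 0.457) and Mbnl3 (5.36 ± 1.01), with Esrp1 last. Among those neighbours only Celf2 and Qk overlapped in library values. In IFNγ-treated NTC, Qk, Mbnl2 and Celf2 stood next to each other at 107, 106 and 96.6 TPM with overlapping values, and so did Rbfox2 and Ptbp2 at 19.6 and 19.1 TPM. In both DKO groups Mbnl2 ranked below Celf2 and Qk: Celf2, Qk and Mbnl2 had means of 98.9, 92.1 and 89.1 TPM without IFNγ and of 112, 95 and 90.3 TPM with it. Qk and Mbnl2 overlapped in both treatments, and Celf2 and Qk overlapped without IFNγ only. Mbnl1 stayed sixth in all 4 conditions, below Celf1. The gap between them was 61 against 56.5 TPM in untreated NTC and 60.0 against 42.1 TPM in untreated DKO. Among all tested genes, Mbnl1 exceeded 78.2% in untreated NTC and 71.8% in untreated DKO, Mbnl2 88.6% and 86.9%, and Mbnl3 20.6% and 25.3%.

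Paralogues of the members that are not themselves among them were mostly low. Of 8 such genes, Celf3, Celf4, Celf5, Celf6, Rbfox1, Rbfox3, Ptbp3 and Esrp2, 2 passed the filter, and Rbfox1 was listed at 0 in every library. Celf5 stayed between 0.846 and 1.21 TPM, far below Celf1 and Celf2. Ptbp3, listed under its older symbol Rod1, stood at 55.7 ± 2.24 TPM in untreated NTC, 63.3 ± 2.6 in IFNγ-treated NTC, 58.1 ± 1.75 in untreated DKO and 60.9 ± 1.92 in IFNγ-treated DKO. It thus lay between Ptbp1 and Ptbp2 in level. Neither paralogue was called between genotypes, with a median log2 difference of 0.06 without IFNγ and -0.01 with it, against -0.01 and -0.01 over all tested genes. Ptbp3 rose with IFNγ in NTC by 0.18 (SE 0.0479, limma adjusted p = 0.0293), against 0.07 (adjusted p = 0.725) in DKO, a difference in response of -0.12 (adjusted p = 0.504). That call was lost without replicate 2 or 3 of either NTC group (0.15 to 0.18, adjusted p from 0.0864 to 0.112). It was also lost with libraries scaled to the same total (0.15, adjusted p = 0.0551) and under the GC/length correction (0.08, adjusted p = 0.308).

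Among 29 other regulators of alternative splicing and their partners, 19 were tested. Without IFNγ 2 were higher and 3 lower in DKO, 5 of 19 beside 36.4% of all tested genes, with a median log2 difference of 0.05. With IFNγ 4 were higher and 3 lower, 7 of 19 beside 43.3%, with a median of 0.01. None was called for IFNγ in NTC or in DKO or for the difference in response. Dmpk, the kinase gene whose expanded repeat RNA traps MBNL in myotonic dystrophy, stood at 4.08 TPM in both NTC groups and at 6.79 and 7.49 TPM in untreated and IFNγ-treated DKO. Its log2 difference was 0.62 without IFNγ (SE 0.089, limma adjusted p = 0.00013) and 0.74 with it (SE 0.089, adjusted p = 2.58e-05). Ddx17 and Ddx5 encode paired RNA helicases that act with splicing regulators. Ddx17 was lower in DKO, at 144 and 132 TPM against 215 and 209 TPM in NTC, and its log2 difference came to -0.57 (SE 0.0471, adjusted p = 1.16e-06) in untreated cells and -0.66 in treated cells (SE 0.0471, adjusted p = 3.06e-07). Ddx5 stood at 711 and 734 TPM in NTC and at 629 and 606 TPM in DKO, with a log2 difference of -0.28 with IFNγ (SE 0.0502, adjusted p = 0.000705) and of -0.18 without it (adjusted p = 0.0141), the latter chosen after its values were seen. Without replicate 1 of untreated NTC or of untreated DKO, that second Ddx5 call was lost (-0.15 and -0.14, adjusted p 0.0614 and 0.0661). Rbm38 stood at 22.0 and 16.9 TPM in NTC and at 32.6 and 28.8 TPM in DKO, with log2 differences of 0.54 (SE 0.135, adjusted p = 0.00668) and 0.73 (SE 0.135, adjusted p = 0.000801). Rbm4 was at 31.8 TPM in untreated NTC and 26.6 TPM in untreated DKO, a log2 difference of -0.25 (SE 0.0884, adjusted p = 0.0411), while with IFNγ it was 0.05 (adjusted p = 0.652), and the contrasts differed by 0.30 (adjusted p = 0.417). The Rbm4 call was lost without NTC replicate 1 or 2 or DKO replicate 1 or 3 of the untreated libraries or DKO replicate 1 with IFNγ (adjusted p from 0.0504 to 0.158), with no filter (0.0688) and with libraries scaled to the same total (0.104). Averaged over treatments, 5 of the 19 were higher and 3 lower in DKO, beside 53.2% of all tested genes called. Msi1, at 1.54 to 2.55 TPM by condition mean, was called in that average (0.25, adjusted p = 0.0304). It was called neither without IFNγ (0.21, adjusted p = 0.217) nor with it (0.29, adjusted p = 0.0808). The averaged Msi1 call was lost without replicate 2 or 3 of either NTC group, replicate 1 or 2 of untreated DKO or replicate 3 of IFNγ-treated DKO (0.20 to 0.24, adjusted p from 0.0553 to 0.0743). It was also lost under the GC/length correction (0.20, adjusted p = 0.0893).

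Genes of nonsense-mediated decay, which removes transcripts with premature stop codons of the kind that frameshift edits create, were all tested, 10 of 10. Without IFNγ 2 of 10 were lower in DKO and none higher, beside 36.4% of all tested genes called, with a median log2 difference of -0.01. With IFNγ 1 of 10 was higher and none lower, beside 43.3%, with a median of -0.08. None was called for IFNγ in either genotype. Smg5 stood at 67.2 ± 1.77 TPM in untreated NTC and 57.5 ± 1.17 in untreated DKO (SD, n = 3), a log2 difference of -0.22 (SE 0.0411, limma adjusted p = 0.000976). With IFNγ it was -0.10 (adjusted p = 0.0544), and the difference between these contrasts was 0.12 (adjusted p = 0.451). Upf3a stood at 34.5 ± 0.618 and 30.4 ± 1.82 TPM in the same groups, a log2 difference of -0.18 (adjusted p = 0.0165) that was not called without replicate 3 of untreated NTC (-0.17, adjusted p = 0.054), without replicate 1 of untreated DKO (-0.14, adjusted p = 0.0804) or with libraries scaled to the same total (-0.13, adjusted p = 0.0733). With IFNγ Upf3a was at -0.13 (adjusted p = 0.0677), a difference between contrasts of 0.05 (adjusted p = 0.794). Upf1 stood at 44.5 ± 3.29 TPM in IFNγ-treated NTC and 53.7 ± 5.2 in IFNγ-treated DKO, a log2 difference of 0.26 (adjusted p = 0.0194) that was not called without replicate 2 or 3 of IFNγ-treated NTC (0.22 and 0.24, adjusted p 0.0749 and 0.0605), without replicate 2 of IFNγ-treated DKO (0.19, adjusted p = 0.0894) or under the GC/length correction (0.04, adjusted p = 0.531). Without IFNγ Upf1 was at 0.08 (adjusted p = 0.466), a difference between contrasts of 0.18 (adjusted p = 0.537). Whether decay of edited transcripts lowered Mbnl1 or Mbnl2 RNA was not tested.

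The cell state around the members was read from marker genes, and their part in the member differences was not tested. Of 8 melanocyte genes all 8 were tested, 8 were lower in DKO without IFNγ (beside 19.4% of all tested genes, median log2 difference -0.53) and 7 with it (beside 23.9%, median -0.55), and none was higher. Their TPM summed to 18097, 17146 and 17299 in untreated NTC, 18584, 18679 and 19201 in IFNγ-treated NTC, 11494, 11672 and 11832 in untreated DKO, and 12831, 12729 and 12808 in IFNγ-treated DKO. Tyrp1 was the most abundant, at a mean of 5245 TPM, and none was at 0. Dct had the largest log2 difference, -0.73 without IFNγ (SE 0.0324, limma adjusted p = 5.71e-09) and -0.70 with it (SE 0.0324, adjusted p = 8.85e-09). It was followed by Tyrp1 (-0.58), Pmel (-0.54) and Tyr (-0.53) without IFNγ (adjusted p 6.3e-07, 7.13e-07 and 3.07e-06) and by Tyr (-0.67), Mlana (-0.59) and Tyrp1 (-0.57) with it (adjusted p 3.42e-07, 4.05e-08 and 6.82e-07). For IFNγ in NTC 4 melanocyte genes were higher and 1 lower, beside 12.1% of all tested genes called, among them Mitf (0.27, adjusted p = 0.00579), Tyr (0.18, adjusted p = 0.0301), Tyrp1 (0.18, adjusted p = 0.0234) and Sox10 (-0.25, adjusted p = 0.0439); in DKO Pmel alone was called (0.20, adjusted p = 0.038). None of these 5 was called for the difference in response, at -0.11 for Mitf, -0.14 for Tyr, 0.01 for Tyrp1, 0.22 for Sox10 and 0.12 for Pmel. The Tyr and Tyrp1 calls for IFNγ were lost without replicate 2 or 3 of either NTC group (0.15 to 0.18, adjusted p from 0.078 to 0.115) and with no filter (adjusted p 0.0503 and 0.0505). Under the GC/length correction both were also lost, at log2 differences of 0.05 for Tyr and 0.09 for Tyrp1 (adjusted p 0.387 and 0.0965). Sox10 was not called without any 1 library of either NTC group, replicate 2 or 3 of untreated DKO or replicate 1 of IFNγ-treated DKO (-0.28 to -0.22, adjusted p from 0.0501 to 0.138) or with no filter (0.0776), and turned to 0.10 under the GC/length correction. Pmel was not called without replicate 2 or 3 of untreated NTC, replicate 1 of IFNγ-treated NTC, any 1 library of untreated DKO or replicate 1 or 2 of IFNγ-treated DKO (0.17 to 0.21, adjusted p from 0.0594 to 0.179), nor with no filter (0.0866), the replicate block (0.0963), the DKO libraries alone (0.153), the same total (0.0537) or median-ratio scaling (0.0581). None of 8 epithelial genes was tested; their sums ran from 1.28 to 2.94 TPM, Grhl2 was highest at a mean of 0.782 TPM, and Epcam, Krt18, Krt8 and Ovol1 were at 0 in every library. Of 7 mesenchymal genes 6 were tested, and 3 were higher and 1 lower in DKO in each treatment, beside 17.0% higher and 19.4% lower of all tested genes without IFNγ and 19.5% and 23.9% with it. Their sums ran from 1105 to 1238 TPM, with Vim highest at a mean of 1022 TPM and Twist1 at 0. Snai2, Fn1 and Cdh2 were higher, by 0.53, 0.42 and 0.27 without IFNγ (adjusted p 0.00186, 6.44e-05 and 0.00126) and by 0.40, 0.75 and 0.27 with it (adjusted p 0.00903, 3.89e-07 and 0.0011). Zeb2 was lower, at -0.15 (adjusted p = 0.00914) and -0.19 (adjusted p = 0.00158), and the first was not called with libraries scaled to the same total (-0.10, adjusted p = 0.0539). None of 6 leukocyte genes was tested (sums 0.325 to 1.87 TPM, Lyz2 highest at a mean of 0.506 TPM, Cd3e, Cd8a and Ptprc at 0), and none of 3 endothelial genes (sums 0 to 0.914 TPM, Pecam1 highest at a mean of 0.552 TPM, Cdh5 and Kdr at 0). Of 4 fibroblast genes 2 were tested (sums 1.63 to 4.24 TPM, Col1a2 highest at a mean of 1.5 TPM, Dcn at 0). Col1a1 reached 1 TPM in DKO libraries only (means 0.635 and 0.298 TPM in untreated and IFNγ-treated NTC, 1.16 and 1.06 TPM in DKO), so the filter favoured a higher value in DKO and its test is not used here. Col1a2 had log2 differences of 0.36 (adjusted p = 0.034) and 0.58 (adjusted p = 0.00185), and the first was not called without any 1 library of untreated NTC or replicate 1 or 3 of untreated DKO (0.28 to 0.39, adjusted p from 0.0527 to 0.134) or with the replicate block (0.0511).

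Genes whose log2 levels followed those of the Mbnl genes over the 12 libraries are given as a description, since a shared genotype difference alone raises such a correlation. Mbnl1 was followed most closely by Diap3 (Pearson r = 0.992, and 0.836 between deviations from condition means), Slc24a5 (0.990 and 0.673) and Slc30a4 (0.988 and 0.708). Mbnl2 was followed by Syt4 (0.976 and 0.894), Tmem30a (0.975 and 0.932) and Rnf13 (0.972 and 0.948). Mbnl3 was followed by Fbl (0.926 and 0.861), Fkbp4 (0.920 and 0.764) and Lepre1 (0.919 and 0.820). A correlation above 0.9 was reached by 904 genes for Mbnl1 (7.75% of all tested), 557 for Mbnl2 (4.78%) and 14 for Mbnl3 (0.12%). Slc24a5, a melanosomal exchanger gene, stood at 550 and 644 TPM in untreated and IFNγ-treated NTC and at 315 and 350 TPM in the matching DKO cells.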

How the data were processed

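RNA was measured in 12 poly(A)-selected, unstranded libraries, 3 for each of 4 conditions. The deposited values are TPM that the authors made with RSEM 1.2.4; Bowtie and TopHat 20.8b are also named in the submitters' processing notes, with the mouse build mm10 (GRCm38). The study's methods give paired-end reads of 50 bp and about 40000000 reads per sample. The depth of each library is not among the deposited values. The 11663 of 23022 genes that reached 1 TPM in 3 or more libraries were fitted as log2(TPM + 1) with limma 3.58.1 in R 4.3.3, with 4 condition means and a mean-variance trend. P-values were adjusted by Benjamini-Hochberg over all tested genes and called under 0.05. The pipeline was tested on simulated data. Python 3.11.15, numpy 2.4.6, pandas 2.3.3 and matplotlib 3.10.9 made the summaries and plots. Alternatives were a 0.1 TPM pseudocount, no filter, the replicate number as a block, each library left out, only the libraries compared, median-ratio scaling, scaling to the same total, and removal of a GC content and gene length trend, which was also joined with the block, a setting chosen after seeing the data. Lists covered paralogues, other splicing regulators, nonsense-mediated decay, and melanocyte, epithelial, mesenchymal, leukocyte, endothelial and fibroblast genes. The treatment was checked with Irf1, Gbp2 and B2m, with Tap1 given by its TPM only; a further item is not reported here. Besides the members, up to 4 called genes of each list with the largest absolute log2 difference in a comparison, and the 3 genes best correlated with each Mbnl gene, were named. Ptbp3 is listed as Rod1 and was found by its identifier. The members and lists were chosen with earlier results of these data known.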

Additional observations from a re-analysis of the deposited data

How the results depend on the processing

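Of 1062 alternative values for 54 member results, 946 kept direction and call, 35 lost the call, 15 gained it and 66 changed sign. Of 1458 for 74 list gene results, 1357 kept both, 99 lost the call and 2 changed sign. These list gene results were all calls of the main fit, so no call could be gained. Their counts are therefore not comparable with those of the members. The Mbnl1 and Mbnl2 calls between genotypes, and the Mbnl3 calls without IFNγ and averaged, held in every setting. Scaling each library to the same total changed the sign of Celf1 (0.0280 without IFNγ, 0.0023 with it, 0.0152 averaged), Qk (0.0198) without IFNγ, Ptbp2 (0.0578) with IFNγ, Celf2 (-0.0244) for IFNγ in NTC, and Mbnl2 (0.0024), Rbfox2 (0.0322) for the difference in IFNγ response. Median-ratio scaling did so for Celf2 (-0.0111) for IFNγ in NTC and Rbfox2 (0.0061) for the difference in response. Removing the trend with GC content and gene length (the GC/length correction), alone or with the replicate block (chosen after seeing the data), did so for Ptbp2 (0.1430) with IFNγ, for Mbnl2 (-0.0449), Mbnl3 (-0.0073), Celf2 (-0.0871), Ptbp1 (0.0075), Sox10 (0.0957) for IFNγ in NTC, and for Mbnl2 (-0.0239), Celf1 (-0.0005), Qk (-0.0021) for IFNγ in DKO. For the difference in response it did so for Mbnl1 (0.0268), Mbnl2 (0.0210), Rbfox2 (0.0114), Ptbp1 (-0.0344), Ptbp2 (0.0623). Leaving out 1 library at a time changed signs without IFNγ for Celf1 (-0.0491 to 0.0015), Ptbp2 (-0.0135 to 0.0997), Qk (-0.0573 to 0.0080), with IFNγ for Ptbp2 (-0.0671 to 0.0450) and averaged for Ptbp2 (-0.0191 to 0.0411). For IFNγ the same held in NTC for Celf2 (-0.0487 to 0.0733) and in DKO for Mbnl2 (-0.0448 to 0.0663), Mbnl3 (-0.0634 to 0.0592), Celf1 (-0.0035 to 0.0727), Rbfox2 (-0.0056 to 0.0647), Qk (-0.0250 to 0.0905), and for the difference in response for Mbnl2 (-0.0938 to 0.0173), Rbfox2 (-0.0440 to 0.0263), Ptbp2 (-0.1243 to 0.0078).

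Members called with IFNγ between genotypes ranged from 2 to 6 with 1 library left out, and members called for IFNγ in NTC from 0 to 2, with 1 under the GC/length correction. Genes called for IFNγ in NTC were 897 with no filter, 472 under the GC/length correction, 379 when the block was added, and 317 to 2023 with 1 library left out. Genes called for the difference in response were 10 with no filter, 2 with the block and 0 to 7 with 1 library left out. The summed Mbnl RNA of untreated DKO was 87.4% of NTC with libraries scaled to the same total. Of genes called for IFNγ in NTC, 60.5% were higher, against 48.8% with median-ratio scaling and 45.1% with the same total, and in DKO 86.8%, against 75.9% under the GC/length correction. With the replicate block 4063, 4899, 6110, 1118, 75 and 2 genes were called (without IFNγ, with it, averaged, IFNγ in NTC, IFNγ in DKO, difference in response). Residuals of libraries with the same number correlated from -0.179 to 0.182 (median -0.0171, 18 pairs, 4 of them above 0.1). These values do not show what libraries with the same number shared beyond it.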
